A study of Mus musculus with 32 samples.

Results

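The 10 genes described here are members of the Notch pathway, followed through every RNA-seq library of a study of kidney development in mice that express tumor mutants of ENL. They comprise the receptors *Notch1*, *Notch2* and *Notch3*, the ligands *Jag1* and *Dll1*, the receptor-modifying glycosyltransferase *Lfng*, and the target genes *Hes1*, *Hes5*, *Hey1* and *Heyl*. The list was taken by symbol, and no threshold on a measured value decided membership. Each symbol matched 1 Ensembl identifier of the deposited count tables, so that the members are 10 of the 55471 identifiers in the largest table.

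Notch receptors are cleaved when a ligand on a neighboring cell binds them, and the freed intracellular part enters the nucleus and activates transcription together with the DNA-binding protein RBPJ. Genes of the Hes and Hey families, which encode basic helix-loop-helix repressors, are the classical targets. In the developing kidney the pathway acts as nephron progenitors leave the progenitor state and form the renal vesicle, and it is known for its part in the proximal segments of the nephron. Fringe enzymes such as Lfng add sugars to the receptors and alter which ligands activate them.

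The study bred mice with a Cre-dependent knock-in of an ENL mutation (the gene is *Mllt1*) to 2 Cre lines. The Six2-TGC transgene drives a GFP-Cre fusion from the Six2 promoter in nephron progenitors and their descendants, and carries *Six3* along with it. The Foxd1-GC knock-in drives an eGFP-Cre fusion in stromal progenitors and removes 1 copy of *Foxd1*. The Cre allele is shared by mutants and controls. The genotypes were Six2-TGCtg/+;Enl+/+ (ENL-WT), Six2-TGCtg/+;EnlT1/+ (Six2-ENL-T1), Six2-TGCtg/+;EnlT3/+ (Six2-ENL-T3), Foxd1GC/+;Enl+/+ (ENL-WT) and Foxd1GC/+;EnlT1/+ (Foxd1-ENL-T1), with the mutant allele heterozygous throughout. Whole E18.5 kidneys gave 2 libraries for each of the 3 Six2 genotypes and 3 for each of the 2 Foxd1 genotypes. Cells positive for a tdTomato Cre reporter (tdT+) were sorted from E14.5 and E18.5 Six2 kidneys (3 ENL-WT and 3 Six2-ENL-T1 libraries at each stage) and from Foxd1 kidneys at E18.5 (4 ENL-WT and 4 Foxd1-ENL-T1 libraries). By the methods, sorted controls came from crosses to mice homozygous for the reporter. Sorted mutants came from separate crosses, to mice homozygous for the reporter and the T1 allele. Genotype and litter, with any difference in embryo age, cannot be told apart in the sorted comparisons.

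All 32 libraries were counted per gene. Totals ran from 106005614 to 157266455 counts in whole Six2 kidneys, from 76510702 to 137888792 in sorted Six2 cells, from 67137194 to 79343015 in whole Foxd1 kidneys and from 2557443 to 3508381 in sorted Foxd1 cells. Levels are given in CPM (counts relative to library size, scaled with TMM factors within each table), and per kilobase of exon wherever genes are compared with each other. *Mllt1* itself did not pass the 1.5-fold threshold between mutant and control libraries in any comparison (log2 fold changes from -0.33 to -0.02). *Xist*, the X-inactivation RNA, and the Y-linked *Ddx3y* differed between groups of whole Six2 kidneys: both Six2-ENL-T1 libraries had *Ddx3y* (122 and 126 CPM), both Six2-ENL-T3 libraries had *Xist* (960.0 and 1327 CPM), and ENL-WT had 1 library of each kind. All whole Foxd1 kidneys had *Xist* (819 to 977 CPM in ENL-WT and 440 to 541 CPM in Foxd1-ENL-T1) and *Ddx3y* at 0 CPM. In sorted Six2 cells both kinds occurred in every group. The summed level of 6 nephron progenitor markers was 1654 to 1945 CPM in sorted E14.5 ENL-WT Six2 cells. That of 6 stromal markers was 4978 to 6838 CPM in sorted ENL-WT Foxd1 cells and 238 to 459.8 CPM in E18.5 Six2 cells. In ENL-WT whole kidneys it was 3822 to 4847 CPM (Foxd1 line) and 4312 to 5370 CPM (Six2 line), not far below the Foxd1 sort. In replicate 1 of that sort *Col1a1* and *Col3a1* had 2461 and 2516 CPM, and *Foxd1* 56.9 CPM. The Foxd1 sort also held 423 to 744 CPM of 5 podocyte markers and 211 to 398 CPM of 8 endothelial markers.

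The genes lie, in the GRCm38 (mm10) assembly with the GENCODE vM21 annotation, on chromosome 2 from 26457903 to 26516663 (*Notch1*, ENSMUSG00000026923), chromosome 3 from 98013527 to 98150361 (*Notch2*, ENSMUSG00000027878), chromosome 17 from 32120820 to 32166852 (*Notch3*, ENSMUSG00000038146), chromosome 2 from 137081456 to 137116644 (*Jag1*, ENSMUSG00000027276) and chromosome 17 from 15367354 to 15376872 (*Dll1*, ENSMUSG00000014773). *Lfng* (ENSMUSG00000029570) is on chromosome 5 from 140607320 to 140615545. The targets are on chromosome 16 from 30064384 to 30067796 (*Hes1*, ENSMUSG00000022528), chromosome 4 from 154960923 to 154962371 (*Hes5*, ENSMUSG00000048001), chromosome 3 from 8663359 to 8667256 (*Hey1*, ENSMUSG00000040289) and chromosome 4 from 123233556 to 123249875 (*Heyl*, ENSMUSG00000032744). Counts cover the exons of each gene. Reads were counted without regard to strand, and parts of some members' exons lie in exons of another gene: 31.8% for *Hes5* (with *Gm20421*, which had at most 7 counts in any library of sorted Six2 cells), 20.5% for *Dll1* (with *A930024N18Rik*, 4 to 74 counts there), and 9.76% for *Notch1*.

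In control tissue the order of the members by level per exon length depended on the cell population. *Hes1* was first in sorted cells: 294.7 ± 31.2 CPM per kb (SD, n = 4) in the stromal lineage, 77.7 ± 10.2 (n = 3) in E14.5 Six2 cells and 70.8 ± 6.68 (n = 3) in E18.5 Six2 cells. In E18.5 Six2 cells *Jag1* (65.0 ± 7.47 CPM per kb) overlapped *Hes1*, followed by *Notch2* (36.3 ± 1.76), *Hey1* (27.0 ± 1.25) and *Notch1* (20.1 ± 2.03), whose ranges did not overlap those of the gene before them. *Notch1*, *Lfng* and *Dll1* each overlapped the next gene in the order *Notch1*, *Lfng*, *Dll1*, *Heyl*. *Notch3* (9.76 ± 0.43) came below *Heyl* (12.6 ± 0.46) without overlap, and *Hes5* stood last at 0.24 ± 0.04 CPM per kb. In the stromal lineage *Heyl* (21.2 ± 1.02 CPM per kb) was second, *Notch2* (15.7 ± 1.44) and *Notch3* (13.6 ± 0.62) came next and overlapped each other, and the ligands were low, with *Jag1* at 5.73 ± 1.32 and *Dll1* at 0.58 ± 0.21. *Hes1* was lower in whole kidneys (25.3 ± 2.52 and 42.1 ± 2.41 CPM per kb in the Six2 and Foxd1 lines) than in any sorted control group. Whole kidneys were not dissociated and were made into libraries with another kit, and the tables were scaled separately, so that tissue, handling and kit cannot be told apart in that difference.

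**Figure D1:**
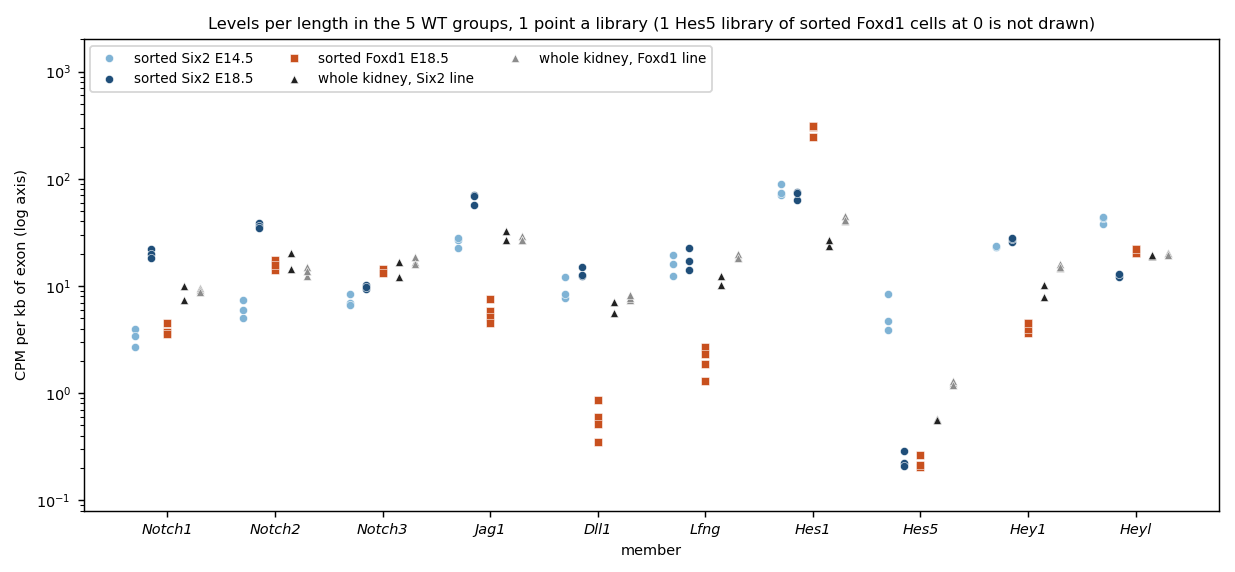
Levels of the 10 members in the 5 control groups, in CPM per kilobase of exon on a log axis, with 1 point for each library. *Hes1* lay highest in sorted Foxd1 cells (mean 294.7), while *Dll1* was lowest there (0.58) and *Hes5* was above 3 CPM per kb only in sorted E14.5 Six2 cells.

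The first comparison set Six2-ENL-T1 against ENL-WT in nephron progenitors and their early descendants, sorted from separate crosses. At E14.5, 4 of the 10 members fell in sorted Six2-ENL-T1 cells and none rose (edgeR quasi-likelihood test, adjusted p under 0.05 and over 1.5-fold, called hereafter). Over all 22387 genes tested, 2.28% fell and 4.11% rose. The 4 genes were 1 receptor (*Notch1*), 1 ligand (*Dll1*), the fringe enzyme *Lfng* and the target *Hes5*. The median log2 fold change of the members was -0.38 against 0.00 for all genes, and 9 of the 10 were below 0. In bulk samples, fewer cells of a type and less RNA per cell cannot be told apart.

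*Notch1*, the receptor most studied in the renal vesicle, was at 56.9, 38.1 and 48.6 CPM in control libraries and at 23.7, 29.9 and 31.1 CPM in Six2-ENL-T1. All 3 mutant libraries lay below the lowest control. The log2 fold change was -0.75 ± 0.15 (SE, adjusted p = 0.0141). *Notch2*, which is required for proximal nephron formation, had 80.3, 54.5 and 64.6 CPM in controls and 52.1, 66.2 and 68.2 CPM in mutants, so that the groups overlapped (log2 fold change -0.08 ± 0.15, adjusted p = 0.79, 95% interval from -0.37 to 0.20). *Notch3*, better known from pericytes and smooth muscle, also overlapped between groups, at 67.9, 56.6 and 54.1 against 41.4, 55.2 and 53.5 CPM (-0.24 ± 0.12, adjusted p = 0.264).

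The ligand *Dll1*, which marks the renal vesicle, had 32.6, 35.5 and 50.6 CPM in controls and 22.0, 24.1 and 20.5 CPM in mutants. No mutant library reached the lowest control, and the log2 fold change was -0.82 ± 0.16 (adjusted p = 0.0106). *Jag1*, the other main ligand of the early nephron, was at 157, 132 and 163 CPM against 99.1, 119 and 116 CPM. Its groups did not overlap, but the log2 fold change of -0.42 ± 0.09 (adjusted p = 0.0189) stayed short of 1.5-fold.

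*Lfng* showed the lowest fold change of the members in this comparison. Its 3 control libraries had 30.7, 40.1 and 48.6 CPM and its 3 mutant libraries 14.2, 16.2 and 12.1 CPM, a level 0.36 times that of controls (log2 fold change -1.47 ± 0.17, adjusted p = 0.00109). No mutant library came near the lowest control.

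Among the targets, *Hes5* went from 5.30, 6.35 and 11.3 CPM in ENL-WT to 2.59, 3.63 and 3.18 CPM in Six2-ENL-T1 (log2 fold change -1.27 ± 0.28, adjusted p = 0.0187). The control libraries varied more than the mutant ones, with replicate 3 above the others, and the groups did not overlap. *Hes1* (142, 182 and 151 against 115, 129 and 128 CPM, log2 fold change -0.34 ± 0.09, adjusted p = 0.0404) and *Heyl* (195, 220 and 227 against 183, 186 and 168 CPM, -0.24 ± 0.06, adjusted p = 0.0439) were also lower in every mutant library than in every control, by less than 1.5-fold. *Hey1* was the exception: 74.8, 75.0 and 77.4 CPM in controls and 91.9, 92.2 and 93.3 CPM in mutants, a log2 fold change of 0.30 ± 0.04 (adjusted p = 0.00257) that was likewise under 1.5-fold.

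**Figure D2:**
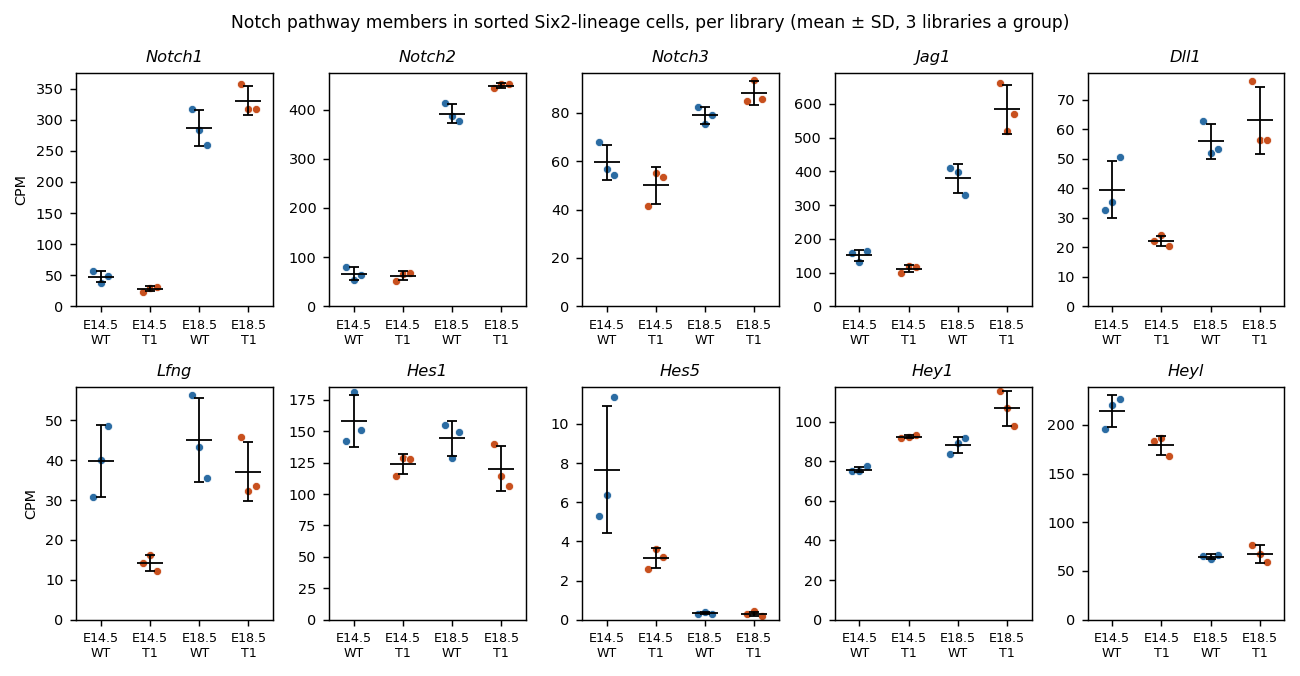
CPM of the 10 members in each library of sorted tdT+ Six2-lineage cells, by stage (E14.5, E18.5) and genotype (ENL-WT in blue, Six2-ENL-T1 in orange), with the mean and SD of 3 libraries. At E14.5 the mutant points of *Notch1*, *Dll1*, *Lfng* and *Hes5* lie below all control points, and at E18.5 those of *Jag1* lie above them.

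Promoters were searched for the letters that RBPJ is known to bind, and those of the 2 members with a match, *Hes5* and *Lfng*, are shown. RefSeq promoter windows (GRCm38.p6, 250 bases before to 50 after the annotated start) matched 7 of the 10 members. *Hes1*, *Hey1* and *Heyl* did not match. Both strands were searched for the core TGGGAA, which reads TTCCCA on the other strand. *Hes5* and *Lfng* each held it once on either strand, and the windows of *Notch1*, *Notch2*, *Notch3*, *Jag1* and *Dll1* held none. *Notch1* and *Dll1* fell at E14.5 as well. Of 33 other pathway genes with a window, 11 held the core. The target *Hey2*, which rose at E14.5 (log2 fold change 0.99) and E18.5 (0.94), held it on both strands. The target *Nrarp*, which fell at E14.5 (-0.92), held none. Of all 32851 windows, 25.6% held the core at least once and 1.81% on both strands. These shares are per window, whereas the counts above are per gene, and some genes have several windows. The 250 bases before each start follow, 5′ to 3′ on the gene's strand (plus for both), with the core in capitals.
*Hes5*, chr4:154960673-154960922: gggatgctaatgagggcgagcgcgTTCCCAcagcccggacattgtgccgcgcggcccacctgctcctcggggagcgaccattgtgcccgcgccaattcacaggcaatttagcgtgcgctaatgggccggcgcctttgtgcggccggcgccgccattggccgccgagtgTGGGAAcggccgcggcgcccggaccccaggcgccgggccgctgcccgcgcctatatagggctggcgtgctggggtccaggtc
*Lfng*, chr5:140607091-140607340: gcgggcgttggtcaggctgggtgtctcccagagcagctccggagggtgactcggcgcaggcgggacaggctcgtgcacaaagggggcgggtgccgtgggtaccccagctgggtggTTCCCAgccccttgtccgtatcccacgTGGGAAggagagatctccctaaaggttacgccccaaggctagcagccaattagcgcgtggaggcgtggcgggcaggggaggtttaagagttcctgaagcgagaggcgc
In *Hes5* the matches begin 226 and 82 bases before the start, and in *Lfng* 135 and 108 bases before it. These matches describe the letters of the windows and not binding, which was not measured here.

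Other pathway genes gave a mixed picture at E14.5. Of a list of 41 further genes, 39 were tested: 3 rose, 3 fell and 33 were not called, with a median log2 fold change of 0.00. The 4 called genes with the largest changes were *Dlk1*, a non-canonical ligand (2.09 ± 0.23, adjusted p = 0.00094), *Neurl1b*, a ubiquitin ligase acting on ligands (1.74 ± 0.35, adjusted p = 0.013), *Mfng*, another fringe enzyme (-1.51 ± 0.20, adjusted p = 0.002), and *Dtx1*, a Deltex ubiquitin ligase (-1.43 ± 0.08, adjusted p = 4e-05). Of the 3 fringe genes, *Lfng* and *Mfng* fell and *Rfng* was not called. *Dtx1* had 58.4, 69.3 and 58.5 CPM in controls and 22.6, 24.2 and 21.7 CPM in mutants. None of the cleavage enzymes and none of the nuclear cofactors on the list was called.

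**Figure D3:**
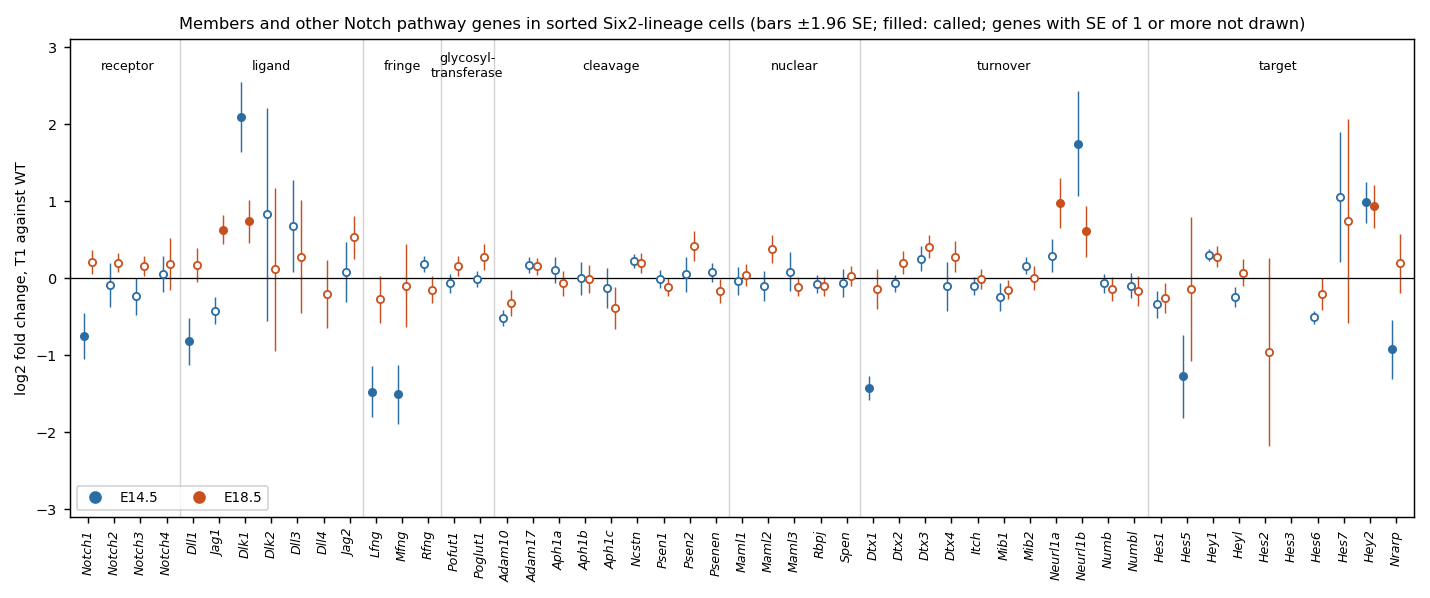
Log2 fold change of Six2-ENL-T1 against ENL-WT for the members and the other pathway genes in sorted Six2 cells at E14.5 (blue) and E18.5 (orange), grouped by role, with bars for 95% intervals and filled points for called genes. Untested genes and genes with an SE of 1 or more are not drawn. At E14.5 the called members all lie below 0 (*Notch1*, *Dll1*, *Lfng* and *Hes5*), and at E18.5 *Jag1* lies above 0.

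Markers of several cell types moved in the same libraries, and their part in the members' changes was not tested. At E14.5, 5 of 6 nephron progenitor markers fell in Six2-ENL-T1 (summed level 846 to 1045 against 1654 to 1945 CPM), as did 1 of 4 early nephron markers, *Lhx1*, a renal vesicle transcription factor (log2 fold change -1.11). The summed early nephron level was 599.9 to 678 against 595 to 729 CPM. Of 6 stromal markers 5 rose and *Foxd1* fell (summed level 808 to 1645 against 399.8 to 522 CPM), and 3 of 6 pericyte and smooth muscle markers rose (108 to 137 against 46.8 to 60.0 CPM). Of 5 podocyte markers 1 rose and 2 fell (46.4 to 53.5 against 92.5 to 117 CPM). No marker list was at 0 in any group. The E14.5 count rested in part on 1 library: without Six2-ENL-T1 replicate 1 it was 2, with *Notch1* (-0.64, adjusted p = 0.0510) and *Hes5* (-1.16, adjusted p = 0.075) no longer passing, and *Hes5* was also lost without replicate 3 (adjusted p = 0.0658), whereas *Dll1* and *Lfng* were called in all 6 fits that each left out 1 library.

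At E18.5 the same comparison gave another result. Only *Jag1* was called, and it rose, so that 1 of 10 members was called up and 0 down against 6.14% and 5.54% of 22685 genes. *Jag1* had 409, 399 and 329 CPM in controls and 662, 519 and 570 CPM in mutants, with no overlap (log2 fold change 0.63 ± 0.10, adjusted p = 0.000406). The fold change was 1.55, close to the threshold, and it fell below 1.5-fold without Six2-ENL-T1 replicate 1 (0.53, adjusted p = 0.00222) and without ENL-WT replicate 3 (0.54, adjusted p = 0.00145). *Hey1* (83.6, 89.2 and 91.6 against 116, 107 and 97.6 CPM, 0.28 ± 0.07, adjusted p = 0.0138) and *Notch2* (413, 387 and 376 against 443, 452 and 451 CPM, 0.20 ± 0.06, adjusted p = 0.0349) were higher in every mutant library by less than 1.5-fold. *Notch3* was also higher in every mutant library (75.3 to 82.3 CPM in controls and 84.7 to 93.7 CPM in mutants) and was not called. *Hes1* (129 to 155 against 106 to 140 CPM) and *Heyl* (62.0 to 66.7 against 58.8 to 76.8 CPM) overlapped between genotypes.

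The genes that had fallen at E14.5 did not pass the test at E18.5. *Notch1* was at 317, 284 and 259 CPM in controls and 358, 318 and 317 CPM in mutants (0.21 ± 0.08, adjusted p = 0.088). *Dll1* had 62.8, 51.9 and 53.4 against 76.2, 56.4 and 56.3 CPM (0.18 ± 0.11, adjusted p = 0.343), and *Lfng* 56.2, 43.2 and 35.6 against 45.7, 32.4 and 33.4 CPM (-0.27 ± 0.16, adjusted p = 0.278). Both overlapped between genotypes. *Hes5* was low, at 20 to 31 counts in ENL-WT and 14 to 34 in Six2-ENL-T1, and its groups overlapped (-0.14 ± 0.48, 95% interval from -1.07 to 0.79). Of the 40 other pathway genes tested, 4 rose and 0 fell: *Neurl1a* (0.98 ± 0.17, adjusted p = 0.00081), *Hey2* (0.94 ± 0.14, adjusted p = 0.00035), *Dlk1* (0.74 ± 0.14, adjusted p = 0.0021) and *Neurl1b* (0.61 ± 0.17, adjusted p = 0.022). In the same libraries all 5 podocyte markers fell, with a summed level of 192 to 244 against 2761 to 3233 CPM. All 5 proximal tubule markers fell (448 to 489 against 1359 to 1832 CPM). Of 6 stromal markers 5 rose and 1 fell (709 to 826 against 238 to 459.8 CPM). The summed level of 4 early nephron markers was 648 to 685 against 488 to 515 CPM, with 1 marker up and 1 down. Nephron progenitor markers fell for 5 of 6 (188 to 243 against 447 to 583 CPM), and loop and distal tubule markers for 4 of 4 (54.2 to 100.2 against 95.7 to 184 CPM). Of other cells' markers, 4 of 6 rose for pericytes and smooth muscle (305 to 319.9 against 145 to 194 CPM, with 1 down). For macrophages 5 of 6 rose (73.8 to 82.9 against 20.4 to 25.2 CPM), and for red cells 3 of 4 (1013 to 1444 against 71.0 to 134 CPM). Of 8 endothelial markers 0 rose and 1 fell (33.7 to 47.2 against 49.7 to 57.6 CPM). Of 5 ureteric tree markers 1 rose and 3 fell (29.2 to 31.5 against 29.6 to 30.6 CPM). The part of all these markers in the *Jag1* value was not tested.

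Whether the effect of ENL-T1 differed between stages was tested with the interaction term over all 12 sorted Six2 libraries. It was positive and past an adjusted p of 0.05 for 4 members and negative for 0, against 3.94% and 4.22% of 25222 genes. The genes were *Jag1* (1.06 ± 0.15, adjusted p = 0.000773), *Lfng* (1.21 ± 0.27, adjusted p = 0.0133), *Dll1* (1.01 ± 0.22, adjusted p = 0.0117) and *Notch1* (0.97 ± 0.18, adjusted p = 0.00542), in log2 units of the E18.5 effect minus the E14.5 effect. For *Hes5* the difference was 1.14 ± 0.47 (adjusted p = 0.17). *Hey1* had the same sign and nearly the same size at both stages, with a difference of -0.01 ± 0.09 (adjusted p = 0.967). Without ENL-WT replicate 2 of E18.5 the count was 2, as *Dll1* (adjusted p = 0.0511) and *Lfng* (adjusted p = 0.0529) no longer passed. Among the other pathway genes 5 interactions were positive and 2 negative, led by *Mfng* (1.42 ± 0.31), *Dlk1* (-1.34 ± 0.29), *Dtx1* (1.30 ± 0.15) and *Nrarp*, a Notch target and feedback inhibitor (1.13 ± 0.30, with 79.4% of its exon bases also in *Gm38287*). Stage went together with dissociation, which used trypsin at E14.5 and collagenase at E18.5.

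Control cells themselves changed with stage: *Notch1*, *Notch2* and *Jag1* rose while *Hes5* and *Heyl* fell. Between E14.5 and E18.5, 3 members rose and 2 fell in sorted ENL-WT Six2 cells at an adjusted p under 0.01 and over 2-fold, against 24.8% and 20.6% of 25222 genes. The share of members called was thus near that of all genes, and the values below describe the single genes. *Notch1* went from 56.9, 38.1 and 48.6 CPM to 317, 284 and 259 CPM (log2 fold change 2.58 ± 0.14, adjusted p = 3.53e-10), and *Notch2* from 80.3, 54.5 and 64.6 CPM to 413, 387 and 376 CPM (2.56 ± 0.13, adjusted p = 1.44e-10). *Jag1* rose from 157, 132 and 163 CPM to 409, 399 and 329 CPM (1.33 ± 0.11, adjusted p = 5.31e-08). All E18.5 libraries lay far above all E14.5 libraries for these 3 genes. *Notch3* (0.41 ± 0.10, adjusted p = 0.00288), *Dll1* (0.50 ± 0.15, adjusted p = 0.00951) and *Hey1* (0.22 ± 0.06, adjusted p = 0.00525) passed the p threshold but were under 2-fold.

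*Hes5* was nearly lost by E18.5. Its level went from 5.30, 6.35 and 11.3 CPM to 0.303, 0.395 and 0.284 CPM, 0.0429 times that of E14.5 (log2 fold change -4.54 ± 0.35, adjusted p = 1.99e-08). *Heyl* fell from 195, 220 and 227 CPM to 64.9, 62.0 and 66.7 CPM (-1.73 ± 0.09, adjusted p = 2.37e-10). *Hes1* (142, 182 and 151 against 155, 129 and 149 CPM, -0.13 ± 0.11, adjusted p = 0.288) and *Lfng* (0.18 ± 0.19, adjusted p = 0.408) overlapped between stages. The 4 targets thus differed in course, with 2 that fell and 2 that stayed within 2-fold.

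Exon length moved with stage in these libraries. Tested protein-coding genes with under 2 kb of exon had a median log2 fold change of -0.49, and those with 8 kb or more a median of 0.67, and the receptors have long exons (14.2, 10.8 and 8.09 kb for *Notch1*, *Notch2* and *Notch3*). With each library's trend of level with exon length taken out, a setting chosen after seeing the data, the same 5 members were called, at 1.57 for *Notch1*, 1.88 for *Notch2*, 1.33 for *Jag1*, -3.91 for *Hes5* and -1.60 for *Heyl*. The value of *Hes1* changed sign under that setting, from -0.13 to 0.49 (adjusted p = 0.00103), and stayed under 2-fold. Of the other pathway genes 12 rose, 7 fell and 21 were not called. The largest changes were those of *Dll4*, an endothelial ligand (4.66 ± 0.77, 3 to 17 counts per E14.5 library), *Hes2* (4.46 ± 1.13, 0 to 3 counts per E14.5 library), *Hes6* (-3.30 ± 0.07) and *Maml1*, a coactivator of the Notch complex (3.05 ± 0.08). Summed podocyte markers went from 92.5 to 117 CPM at E14.5 to 2761 to 3233 CPM at E18.5, and 6 of 8 endothelial markers rose (19.6 to 22.5 CPM at E14.5 and 49.7 to 57.6 CPM at E18.5). Nephron progenitor markers fell for 5 of 6 (1654 to 1945 CPM, then 447 to 583 CPM). Proximal tubule markers rose for 5 of 5 (6.37 to 21.5 CPM, then 1359 to 1832 CPM), loop and distal tubule markers for 4 of 4 (1.22 to 1.57 CPM, then 95.7 to 184 CPM), and pericyte and smooth muscle markers for 5 of 6 (46.8 to 60.0 CPM, then 145 to 194 CPM). Their part in the members' changes was not tested.

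**Figure D4:**
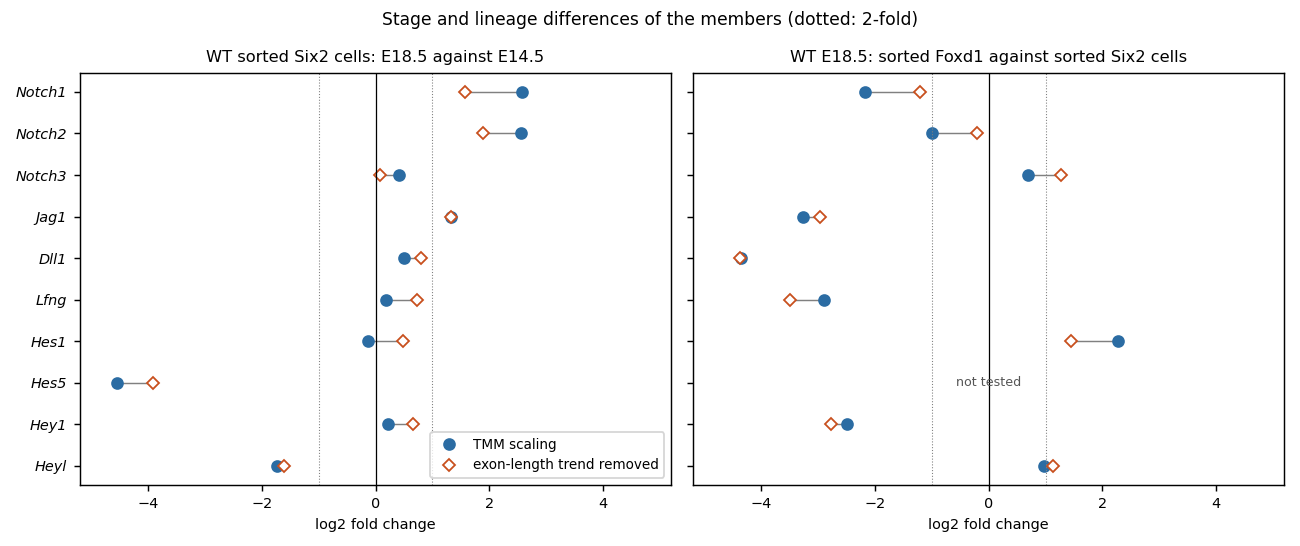
Log2 fold changes of the members between stages in ENL-WT Six2 cells (left) and between the sorted Foxd1 and Six2 lineages of ENL-WT kidneys at E18.5 (right), with TMM scaling (blue) and with the trend on exon length removed (orange). Dotted lines mark 2-fold, and *Hes5* was not tested between lineages. *Notch1*, *Notch2* and *Jag1* stay above 2-fold on the left under both scalings, and *Hes1* on the right moves from 2.27 to 1.44.

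No member was called in whole Six2-line kidneys, all of E18.5. For Six2-ENL-T1 against ENL-WT, 0 of 10 members passed, while 2.88% of 23931 genes rose and 4.88% fell. For Six2-ENL-T3, compared with the same 2 control libraries, it was again 0, against 4.34% and 5.28%. For T3 against T1 it was 0, against 0.00418% (1 gene) and 0%. At an unadjusted p under 0.05 the edgeR test gave 1, 2 and 0 members in these comparisons, and DESeq2 and edgeR's exact test called 0 in each. The 95% intervals of the 10 members lay between -0.37 and 0.78 for T1 and between -0.41 and 0.77 for T3.

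*Hey1* came closest. It had 25.9 and 33.3 CPM in controls, 37.2 and 39.7 CPM with T1 and 39.6 and 45.7 CPM with T3, so that every mutant kidney was above both controls. The log2 fold change was 0.38 ± 0.12 (adjusted p = 0.0942) for T1 and 0.53 ± 0.13 (adjusted p = 0.0255) for T3, the latter under 1.5-fold. Without ENL-WT replicate 2, *Hey1* was called in both (0.59 and 0.74), and without Six2-ENL-T3 replicate 1 it was called for T3 (0.63). Each of these fits leaves a group with 1 library, which is assumed to vary like the other groups. *Jag1*, the gene called in sorted cells of this stage, was at 155 and 188 CPM in ENL-WT kidneys, 170 and 174 CPM in T1 and 161 and 146 CPM in T3 (log2 fold changes 0.01 ± 0.10 and -0.16 ± 0.10). Of the 40 other pathway genes tested, 2 rose and 2 fell in T1 (*Hes2*, -2.39 ± 0.44, *Dll3*, 2.14 ± 0.53, the gamma-secretase subunit *Aph1c*, -0.89 ± 0.15, and *Hey2*, 0.62 ± 0.09), 1 rose and 2 fell in T3 (*Hes2*, -1.66 ± 0.42, *Aph1c*, -0.69 ± 0.15, and *Numbl*, 0.67 ± 0.08), and 0 were called for T3 against T1. All 5 podocyte and all 5 proximal tubule markers fell in both mutants. In these kidneys the 2 sex patterns described above coincide with T1 and T3, and sex and mutation cannot be told apart between them.

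**Figure D5:**
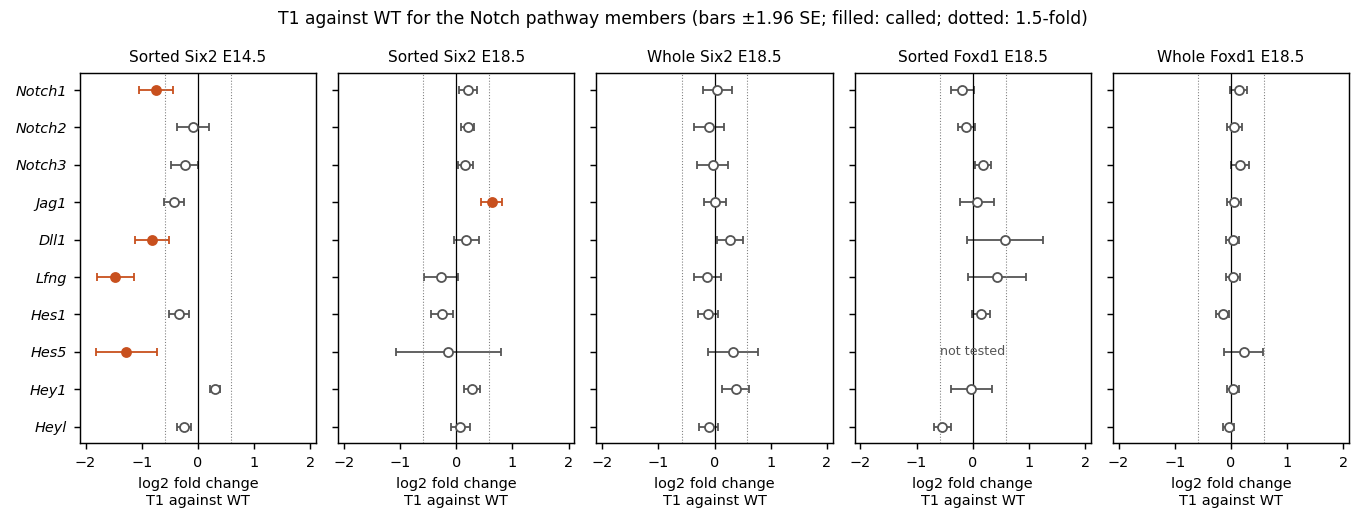
Log2 fold change of ENL-T1 against ENL-WT for each member in 5 settings, with bars for 95% intervals, filled points for called genes and dotted lines at 1.5-fold. The filled points are *Notch1*, *Dll1*, *Lfng* and *Hes5* at E14.5 and *Jag1* at E18.5, all in sorted Six2 cells.

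Of the members tested between lineages, *Hes1* was higher in the stromal lineage and both ligands, *Lfng*, *Hey1* and *Notch1* were lower. In ENL-WT cells at E18.5, 1 member was called higher in sorted Foxd1 cells and 5 lower, at an adjusted p under 0.01 and over 2-fold, against 27.2% and 28.2% of 14869 genes. With so many genes called, the share of members called, 6 of 9 tested, is not read as particular to them. DESeq2 and edgeR's exact test each called 7 members. The fold changes come from a joint fit of the Foxd1 and Six2 sorts, whereas the CPM are scaled within each table. Ratios of the printed CPM can therefore differ from the fold changes, which matters for *Notch2*, close to 2-fold. *Hes1* had 623, 505, 639 and 633 CPM in the stromal lineage and 155, 129 and 149 CPM in the nephron lineage (log2 fold change 2.27 ± 0.10, adjusted p = 1.11e-14). The ligands were lower: *Jag1* had 43.9, 33.9, 29.8 and 26.0 CPM against 409, 399 and 329 CPM (-3.27 ± 0.14, adjusted p = 2.12e-15), and *Dll1* had 2.50, 1.46, 3.63 and 2.17 CPM, from 5 to 9 counts a library, against 62.8, 51.9 and 53.4 CPM (-4.35 ± 0.21, adjusted p = 2.6e-14). *Lfng* (4.72, 6.72, 3.23 and 5.79 CPM, -2.90 ± 0.22), *Hey1* (11.9, 14.6, 12.9 and 14.8 CPM, -2.49 ± 0.12) and *Notch1* (51.7, 52.3, 50.8 and 64.4 CPM, -2.18 ± 0.09) were lower too, with no overlap in any of the 6.

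The other receptors and *Heyl* passed the p threshold and stayed under 2-fold. *Notch2* was at 151, 172, 188 and 168 CPM in Foxd1 cells (-0.998 ± 0.07, adjusted p = 1.85e-11), *Notch3* at 109, 108, 117 and 106 CPM against 82.3, 75.3 and 79.1 CPM (0.69 ± 0.07, adjusted p = 9.29e-09), and *Heyl* at 104, 113, 104 and 113 CPM against 64.9, 62.0 and 66.7 CPM (0.96 ± 0.08, adjusted p = 5.6e-10). *Hes5* had at most 1 count in any sorted Foxd1 library and was left out by the filter on low counts. The limit that a count of 0 allows there, 3 counts or 0.833 to 1.21 CPM, lay above its level in E18.5 Six2 cells. Of the other pathway genes 11 were higher and 7 lower, led by *Dlk1* (3.75 ± 0.30), *Notch4*, an endothelial receptor (2.51 ± 0.18), *Mfng* (2.35 ± 0.35) and *Psenen*, a gamma-secretase subunit (2.17 ± 0.07). *Psenen* has 1.275 kb of exon, and protein-coding genes under 2 kb had a median of 1.68 in this comparison. All 8 endothelial markers were higher in the Foxd1 sort (summed level 211 to 398 against 49.7 to 57.6 CPM). So were all 6 pericyte and smooth muscle markers (2090 to 2531 against 145 to 194 CPM), all 6 stromal and 5 of 6 macrophage markers. Lower were 4 of 5 podocyte (423 to 744 against 2761 to 3233 CPM), 5 of 5 proximal tubule (94.4 to 232 against 1359 to 1832 CPM) and 4 of 4 early nephron markers. The part of these markers in the members' differences was not tested.

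Length moved with lineage as well. Protein-coding genes under 2 kb had a median log2 fold change of 1.68, those of 2 to 4 kb a median of 0.38 and those of 8 kb or more a median of -0.83. *Hes1*, with 2.04 kb of exon, is in the class of 2 to 4 kb. With the length trend removed, 8 members were called: *Hes1* at 1.44, *Notch3* at 1.27 and *Heyl* at 1.14 higher, and *Notch1* at -1.20, *Jag1* at -2.96, *Dll1* at -4.37, *Lfng* at -3.49 and *Hey1* at -2.78 lower. The share of all genes called under that setting is not given here, so this count is not read as particular to the members either. *Notch2* went from -0.998 to -0.20. Lineage also went together with read length, which the methods give as different for the Cre lines, and with depth, and these cannot be told apart from it.

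ENL-T1 expressed in the stromal lineage left 0 of 9 tested members called in sorted cells, against 3.63% of 12717 genes up and 2.18% down. The edgeR test gave 2 at an unadjusted p under 0.05, and DESeq2 and the exact test called 0. *Heyl* was the one with an adjusted p under 0.05. It had 104, 113, 104 and 113 CPM in ENL-WT and 76.4, 78.1, 72.3 and 71.4 CPM in Foxd1-ENL-T1, with no overlap between the 4 control and the 4 mutant libraries (log2 fold change -0.54 ± 0.08, adjusted p = 8.39e-05, 0.687 times the control level), just short of 1.5-fold. *Hes1* (707, 654, 691 and 597 CPM in the mutant, 0.14 ± 0.08), *Notch2* (158, 153, 148 and 165 CPM, -0.12 ± 0.08) and *Notch3* (123, 126, 118 and 132 CPM, 0.19 ± 0.07, adjusted p = 0.122) did not pass. The 95% intervals of *Dll1* and *Lfng* reached 1.25 and 0.95 on the log2 scale, so that a 1.5-fold rise is within them. None of the 34 other pathway genes tested was called. Of 6 pericyte and smooth muscle markers 3 fell (summed level 1431 to 1667 against 2090 to 2531 CPM) and 4 of 6 macrophage markers rose (169 to 237 against 67.3 to 171 CPM), and their part in the *Heyl* value was not tested.

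The effect of ENL-T1 differed between the lineages for 3 members at E18.5 by the interaction term, each with a lower value in the stromal lineage, against 8.25% of 14869 genes positive and 7.63% negative. They were *Heyl* (-0.63 ± 0.12, adjusted p = 0.000595), *Notch2* (-0.34 ± 0.10, adjusted p = 0.0253) and *Notch1* (-0.42 ± 0.13, adjusted p = 0.0379). *Jag1*, the gene called in Six2 cells, had a difference of -0.57 ± 0.20 (adjusted p = 0.0567), and *Hes1* one of 0.38 ± 0.14 (adjusted p = 0.0652). DESeq2 called 4 members, the same 3 and *Jag1*, all negative. *Heyl* was called in all 14 fits that each left out 1 library, *Notch2* in 11, *Notch1* in 8 and *Jag1* in 5, all negative, while *Hes1* was called positive in 2 (range over the 14 fits 0.28 to 0.51), and without ENL-WT replicate 3 of the Six2 cells *Heyl* alone remained. Among the other pathway genes 1 interaction was positive and 5 negative, led by *Dlk1* (-1.51 ± 0.39), *Hey2* (-1.09 ± 0.33), *Maml2* (-0.83 ± 0.20) and *Dtx4* (-0.77 ± 0.19).

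In whole kidneys of the Foxd1 line 0 of 10 members were called, against 2.65% of 20145 genes up and 7.53% down. The edgeR test gave 1 member at an unadjusted p under 0.05, *Hes1* (81.9, 91.3 and 84.3 against 83.2, 76.2 and 72.6 CPM, -0.15 ± 0.06, adjusted p = 0.0798), and DESeq2 and the exact test called 0. *Heyl*, lower in the sorted mutant cells, had 103, 104 and 98.4 against 101, 99.2 and 96.7 CPM (-0.04 ± 0.05, 95% interval from -0.13 to 0.06). With the normal quantile no member's interval reached 1.5-fold. The widest, that of *Hes5*, ended at 0.57, just short of it, so that a slightly wider interval would include 1.5-fold. Of the other pathway genes 2 fell, *Hes2* (-1.24 ± 0.45, adjusted p = 0.049) and *Aph1c* (-0.86 ± 0.09, adjusted p = 7.8e-06). In these kidneys 4 of 6 nephron progenitor markers rose (421 to 528 against 278 to 295 CPM). Proximal tubule markers fell for 4 of 5 (1099 to 1418 against 2395 to 2491 CPM), loop and distal tubule markers for 3 of 4, and pericyte and smooth muscle markers for 3 of 6. Of 5 ureteric tree markers 1 rose and 1 fell, and 1 of 8 endothelial markers fell. What these markers contribute to the members' values was not tested. The interaction of Cre line and genotype in whole kidneys called 0 members, against 4.82% of 22826 genes positive and 3.55% negative. All whole Foxd1 kidneys had the *Xist* pattern and both Six2-ENL-T1 kidneys the *Ddx3y* pattern, so that sex is not balanced in this interaction. The edgeR test gave 1 at an unadjusted p under 0.05, *Hey1* (-0.35 ± 0.14, adjusted p = 0.142), and DESeq2 called 0. *Hey2* was the 1 other pathway gene called (-1.11 ± 0.14, adjusted p = 0.00031). Without ENL-WT replicate 1 of the Six2 kidneys *Notch2* was called (0.40, adjusted p = 0.0413), and without replicate 2 *Dll1* (-0.47, adjusted p = 0.0178) and *Hey1* (-0.58, adjusted p = 0.00268), again with 1 library left in that group.

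For 1 receptor, 1 ligand and 1 target, the genes with the most similar profile over the 12 sorted Six2 libraries were listed from 15969 genes with a mean of at least 1 CPM. The 5 genes most like *Notch2* were *Clasp2*, *Scube3*, *Gm23119*, *Ctif* and *Sesn3* (Pearson's r of log2 CPM 0.998 to 0.999). Those most like *Jag1* were *Tacc2*, *Sh3bp4*, *Pdzd2*, *Clu* and *B4galnt3* (0.990 to 0.995), and those most like *Hes5* were *Top3a*, *Mcm10*, *Iars*, *Aldh18a1* and *1300002E11Rik* (0.983 to 0.987). The libraries form 4 groups and share stage, dissociation and depth. With the group means taken out, r was 0.824 to 0.938 for *Notch2*, 0.402 to 0.843 for *Jag1* and 0.423 to 0.624 for *Hes5*.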

How the data were processed

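RNA was measured in 32 libraries in 11 groups. According to the study's methods, whole kidneys were made into stranded poly(A) libraries and sorted cells into ultra-low-input libraries, reads were aligned to mm10 with HISAT2 and counted with HTSeq without strand, and edgeR was used (tools also named in the submitters' processing notes). The annotation release is not given in the sources used here. The deposited values are raw read counts per Ensembl gene in 4 tables. No row lacked a gene identifier. Symbols, coordinates and exon lengths came from GENCODE vM21, which held 54723 of 54752 identifiers in 3 tables and 55144 of 55471 in the fourth. Comparisons between tables used the identifiers they share.

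Counts were fitted with edgeR 4.0.16 (R 4.3.3; filterByExpr with a minimum count of 10 and a total of 15, TMM factors, quasi-likelihood F test) over all genes of each comparison, with Benjamini-Hochberg adjustment over all genes tested. Genotype comparisons were called at an adjusted p under 0.05 and over 1.5-fold, stage and lineage at 0.01 and 2-fold, and interactions at 0.05. The SE is the log2 fold change divided by the square root of F, and 95% intervals use the normal quantile. With so few libraries a group, a t quantile would give wider intervals, so the bounds given are approximate. Alternatives were DESeq2 1.42.0, edgeR's exact test, RLE factors, library size only, other count filters, no fold threshold, other sample sets, replicate number as a block, each library left out, and, added after seeing the data, removal of each library's lowess trend (span 0.5) of log2 CPM on exon length. The fits were tested on simulated data. Replicates are separate samples by their labels, and nothing in the labels says that they came from separate animals, so p-values measure the spread between these samples. Libraries of 1 group differed by more than sampling noise (chi-square per degree of freedom at least 1.36). The count of a low gene limits its precision, and 3 counts (the limit that a count of 0 allows) came to 0.0191 to 1.21 CPM.

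The 10 members, the lists of 41 other pathway genes and 59 markers and the tests were chosen with earlier results of these data known. Other pathway genes were named where called, at most 4 per comparison by absolute log2 fold change.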

Additional observations from a re-analysis of the deposited data

Results flagged for a closer look

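Of 20 groups of 4 libraries examined, each of 1 member in sorted Foxd1 cells, 3 had a library farther from the others than Dixon's critical value allows, and chance gives about 1 in 20. *Notch1* was at 64.4 CPM in ENL-WT replicate 4. *Hes1* was at 505 CPM in ENL-WT replicate 2. *Hes5* was at 0.332 CPM in Foxd1-ENL-T1 replicate 2, which is 1 count, with 0 in the other libraries of that group. A group with all but 1 library at 0 always passes the critical value, so the chance rate does not apply to *Hes5*.

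The effect of ENL-T1 differed between stages in sorted Six2 cells, by the interaction term, for *Notch1* (0.97), *Jag1* (1.06), *Dll1* (1.01) and *Lfng* (1.21), in log2 units of E18.5 minus E14.5. Between lineages at E18.5 it differed for *Notch1* (-0.42), *Notch2* (-0.34) and *Heyl* (-0.63), in log2 units of Foxd1 minus Six2.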

How the results depend on the processing

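Over 109 alternatives other than leaving out a library, the count of members called stayed within 1.5 times its value in 101, and no called member reversed its direction under any alternative run. With no fold threshold the count was 8 at E14.5 (1 up, 7 down), 3 at E18.5, 8 for stage (6 up, 2 down), 1 in sorted Foxd1 cells and 1 for whole Six2-ENL-T3 kidneys. Dropping the threshold can only raise the share of all genes called, which is not given here. These counts are therefore not read as particular to the members. Scaling by library size alone also gave 1 for whole Six2-ENL-T3 kidneys, and no low-count filter gave 1 for the Cre line interaction. Leaving out 1 library gave 0 to 1 in whole Six2-ENL-T1 and in whole Six2-ENL-T3 kidneys, 2 to 4 at E14.5, 0 to 1 at E18.5, 2 to 4 for the stage interaction, 1 to 4 for the lineage interaction and 0 to 2 for the Cre line interaction. For these the cause was not tested.

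Same-numbered replicates did not deviate together (correlations from -0.079 to 0.139 over 19 pairs), so the numbers were not taken as a pairing. The replicate block gave 5 for the lineage interaction (1 up, 4 down), with *Jag1* and *Hes1* added to the 3, and it changed no other count of members called. Depth limits *Hes5* in sorted Foxd1 cells, where no library had more than 1 count.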
